A study of Homo sapiens with 3 samples.

Results

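The 10 genes described here encode the MYC family (MYC, MYCN and MYCL), their shared partner MAX, the MAX-binding repressors MXI1, MXD1, MXD3, MXD4 and MNT, and the related factor MLX. They were found by matching the Ensembl identifiers of the deposited tables to these symbols, and all 10 had a row of their own among the 27024 counted genes. The RNA came from 22Rv1, a long-established line of human prostate carcinoma cells, and was sequenced in 3 libraries labelled WT and numbered replicates 1 to 3. WT cells carry the intact risk enhancer on which the study turns, with its non-risk allele, and were grown in RPMI1640 with serum and no drug that the labels name. The study describes them as control clones in its methods and as biological replicates in its results. The libraries of cells with the enhancer deleted or its allele changed were not analysed here, so there is 1 group and no contrast between conditions. Whether they are separate clones or cultures of 1 line stayed unclear, so each SD and p below measures only the spread between these samples, which may be technical.

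MYC proteins bind DNA only as heterodimers with MAX, mostly at the E-box CACGTG, and there recruit histone acetyltransferases and elongation factors. The MXD proteins, MXI1 and MNT compete for MAX and for the same sites and bring in the SIN3 histone deacetylase complex, so that the balance between both sets of MAX partners is the usual way to describe the network. MLX joins MXD1, MXD4 and MNT and, with MLXIP or MLXIPL, forms the branch that responds to glucose. In prostate cancer, gain of MYC is common in adenocarcinoma, MYCN is known from neuroendocrine tumours and MYCL from a subset of tumours.

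The promoters of the network genes themselves can hold the letters the network reads. Promoter windows from RefSeq on GRCh38.p14, from 250 bases before to 50 bases after each start, were searched for CACGTG, which reads the same on both strands. Windows were found for 9 of the 10 genes, all but MYC, and 3 of these genes held the motif: MXD4, MNT and MLX. Of all 35116 promoter windows 7.26% held it, and of the 10346 expressed genes with a window 12.8% did. Among the genes taken as textbook targets activated by MYC, 16 of the 26 with a window held it, and in 9 of them it lay before the start. The following lines give the motif in capitals with its neighbouring bases, 5′ to 3′ along the gene's strand, for the 3 network genes and for the 3 targets of highest normalized count with a motif before the start.
MXD4 (chr4:2262317-2262359, minus strand, motif 238 bases before the start): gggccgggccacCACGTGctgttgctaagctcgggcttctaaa
MNT (chr17:2401223-2401278, minus strand, motif 193 bases before the start): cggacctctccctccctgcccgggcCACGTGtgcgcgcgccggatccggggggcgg
MLX (chr17:42567025-42567080, plus strand, motif 50 bases before the start): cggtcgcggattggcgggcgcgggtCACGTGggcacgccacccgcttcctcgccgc
HSPD1 (chr2:197500332-197500387, minus strand, motif 88 bases before the start): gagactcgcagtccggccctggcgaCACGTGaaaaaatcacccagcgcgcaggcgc
LDHA, upstream motif (chr11:18394353-18394408, plus strand, motif 185 bases before the start): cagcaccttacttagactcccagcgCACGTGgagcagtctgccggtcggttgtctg
LDHA, downstream motif (chr11:18394451-18394506, plus strand, motif 87 bases before the start): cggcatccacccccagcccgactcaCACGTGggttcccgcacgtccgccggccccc
ODC1 (chr2:10448013-10448066, minus strand, motif 29 bases before the start): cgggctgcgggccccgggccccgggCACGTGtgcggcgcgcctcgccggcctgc

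These matches describe reference sequence and are not evidence of binding in these cells. When the variant CACGCG was allowed on either strand, 5 of the 9 network genes with a window held a match, as did 32.1% of the expressed genes with a window. The other lists held CACGTG in 2 of 3 genes for the glucose branch (ARRDC4 and PKLR), 3 of 13 for MYC turnover, 3 of 11 for coactivators, 1 of 9 for corepressors and 0 of 6 for genes repressed by MYC. It was 0 of 8 for factors outside the network that read the E-box and 0 of 3 for MLXIP, MLXIPL and MGA.

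Levels were measured as the authors' normalized read counts, that is, reads per gene divided by 1 size factor per library. Whole reads could be recovered from these values, and came to 38252744, 35675670 and 38629080 in replicates 1, 2 and 3. Expression was set at 1 CPM (reads scaled to a common library size) or more in each library, which 12877 genes reached. The markers of prostate luminal cells reported here were expressed in every library, with KRT8 at 25161 ± 789, KRT18 at 16492 ± 1351 and KLK3, the lowest of the marker list, at 341 ± 32.9 normalized counts (SD, n = 3). Of the 6 markers of blood and stromal cells with a row, CD3E was listed at 0 and PTPRC had at most 1 read in a library. COL1A1 at 261 ± 17.2 and CD68 at 66.6 ± 11.5 normalized counts were the 2 that reached 1 CPM in each library. COL3A1 stood at 33.9 ± 11.5. The 6 together summed to between 327 and 414 normalized counts, most of it COL1A1.

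Transcripts of the MYC family were almost all MYC. The oncogene MYC itself stood at 8239.6 normalized counts in replicate 1, 7649.2 in replicate 2 and 7773.5 in replicate 3, which is 7887 ± 311 (SD, n = 3). Replicate 1 was the highest, 1.08 times replicate 2, and the other two lay close together. MYCL, first found amplified in lung cancer, had 86.1, 78.7 and 96.0 normalized counts, a mean of 86.9 ± 8.68 (SD, n = 3) on 93 to 122 reads per library. Its lowest library was again replicate 2, but its highest was replicate 3. MYCN, the paralog of neuroblastoma and neuroendocrine tumours, had 37.1, 24.5 and 19.7 normalized counts on 47, 29 and 25 reads. The 3 values averaged 27.1 ± 8.99 (SD, n = 3), or 0.896 CPM, so MYCN was the single one of the 10 genes not expressed in every library at 1 CPM. Its coefficient of variation was 33.2%, where counting 25 to 47 reads gives 17.2% on its own.

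Counts rise with transcript length, so genes were compared per kilobase of their canonical transcript. On that scale MYC stood at 2120 ± 83.6, MYCL at 24.7 ± 2.46 and MYCN at 10.4 ± 3.44 normalized counts per kilobase (SD, n = 3). MYC made up 98.4% ± 0.0985 of the family's sum, MYCL 1.15% ± 0.119 and MYCN 0.478% ± 0.140. The level of MYC was 86.4 ± 8.48 times that of MYCL and 217 ± 60.6 times that of MYCN. With the length of all exons the share of MYCN was 0.741% and the ratio of MYC to it 140 ± 38.9. Among all expressed genes, 91.2% had a lower level per kilobase than MYC, 6.17% a lower one than MYCL and 1.28% a lower one than MYCN. The ranges of the 3 paralogs over the libraries did not overlap.

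MAX, the obligate partner of MYC and of the MXD proteins, had 1298.9, 1392.9 and 1373.0 normalized counts, a mean of 1355 ± 49.5 (SD, n = 3). It was lowest in replicate 1, the library in which MYC was highest. Per kilobase it reached 674 ± 24.6, above 71.3% of expressed genes. The ratio of MYC to MAX per kilobase was therefore highest in replicate 1, at 3.43, against 2.97 in replicate 2 and 3.06 in replicate 3. It averaged 3.15 ± 0.244 (SD, n = 3), and MYC exceeded MAX in each library. All MAX partners among the 10 genes, summed per kilobase, came to 6.52 ± 0.409 times MAX. Both ratios depend on the length taken for MAX, whose canonical transcript spans 2010 bases, its coding part 480 and all its exons together 6257. Per kilobase of coding length MYC was 2.06 times MAX, and per kilobase of all exons 5.97 times.

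Among the repressors that compete for MAX, each of the 5 genes was expressed in every library. MXD3, which is known to be made in proliferating cells, had 1387.4, 1337.1 and 1458.8 normalized counts and was highest in replicate 3. MXI1, known as a MYC antagonist with several promoters, had 1561.2, 1486.0 and 1581.6 and was likewise highest in replicate 3. MNT, the most broadly expressed antagonist of the family, had 1146.4, 1115.4 and 1091.2 and was highest in replicate 1. Their means were 1394 ± 61.2 for MXD3, 1543 ± 50.3 for MXI1 and 1118 ± 27.7 for MNT (SD, n = 3).

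The remaining antagonists were lower. MXD4, associated with differentiated cells, had 670.0, 690.5 and 607.0 normalized counts, a mean of 656 ± 43.5 (SD, n = 3), and replicate 3 lay below the other two. MXD1, a gene induced when many cell types differentiate, had 487.5, 480.7 and 469.2, a mean of 479 ± 9.25 (SD, n = 3). The 3 values of MXD1 varied by 1.93%, less than the 4.10% that counting its reads would give, so its spread was no larger than sampling noise.

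Per kilobase, MXD3 led the antagonists at 1307 ± 57.3, followed by MXI1 at 445 ± 14.5, MNT at 227 ± 5.62, MXD4 at 169 ± 11.2 and MXD1 at 86.3 ± 1.67 (SD, n = 3). MXD3 held 58.5% ± 1.16 of the antagonists' sum, MXI1 19.9% ± 0.174, MNT 10.2% ± 0.408, MXD4 7.59% ± 0.683 and MXD1 3.87% ± 0.150. MXD3 was the highest of the 5 under all 4 lengths tried, but its share was not stable, since its canonical transcript of 1067 bases is the shortest of the 10 and its exons together span 4743 bases. The share of MXD3 was 35.2% with coding length and 34.4% with all exons. MXD1 then held 11.3% and 8.83%, MXI1 held 27.2% and 30.6%, MXD4 16.3% and 11.2%, and MNT 9.99% and 15.0%. MYC was 0.949 ± 0.0366 times the sum of the 5 antagonists, with 0.987, 0.946 and 0.914 in replicates 1 to 3, so it lay below that sum in each library. With the length of all exons the ratio was 1.51, and without bases under exons of other genes it was 1.00, so the side on which MYC fell turned on the length used. The counts were left whole, so the ratio of 1.00 is too high if reads from the bases left out were counted. Against MXD3 alone, the highest antagonist per kilobase of canonical transcript, MYC was 1.62 ± 0.0887 times as high, and this ratio was 2.57 with coding length and 4.40 with all exons. A balance of transcripts is not one of proteins, which were not measured.

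MLX, the partner shared by the glucose-responsive factors and some of the antagonists, had 2823.7, 2719.0 and 2715.3 normalized counts, a mean of 2753 ± 61.5 (SD, n = 3). Replicate 1 was the highest and the other two were nearly equal. Per kilobase it stood at 1166 ± 26.1, or 1.73 ± 0.103 times MAX, a ratio of 1.33 with coding length and 2.99 with all exons. PSMC3IP, a recombination factor on the opposite strand with 879 ± 47.1 normalized counts, covers 32.8% of the canonical exon bases of MLX. With those bases left out of the length, a choice made after seeing the data, MLX reached 1737 ± 38.8 per kilobase and passed MXD3. The counts of MLX were left whole, so this level is too high if reads from those bases were counted.

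The order per kilobase of canonical transcript was MYC, MXD3, MLX, MAX, MXI1, MNT, MXD4, MXD1, MYCL and MYCN. The values of neighbours in this order did not overlap over the 3 libraries, and the closest pair, MXD3 and MLX, were 1.12 times apart. With 3 libraries per gene an exact paired test cannot give a two-sided p below 0.25, so no test was made. Per kilobase of coding length the order was MYC, MLX, MAX, MXD3, MXI1, MXD4, MXD1, MNT, MYCL and MYCN. With all exons merged it was MYC, MLX, MXD3, MXI1, MAX, MNT, MXD4, MXD1, MYCL and MYCN. MYC at the top and MYCL and MYCN at the bottom held under all 4 lengths tried, and the places of the genes between them did not.

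**Figure D1:**
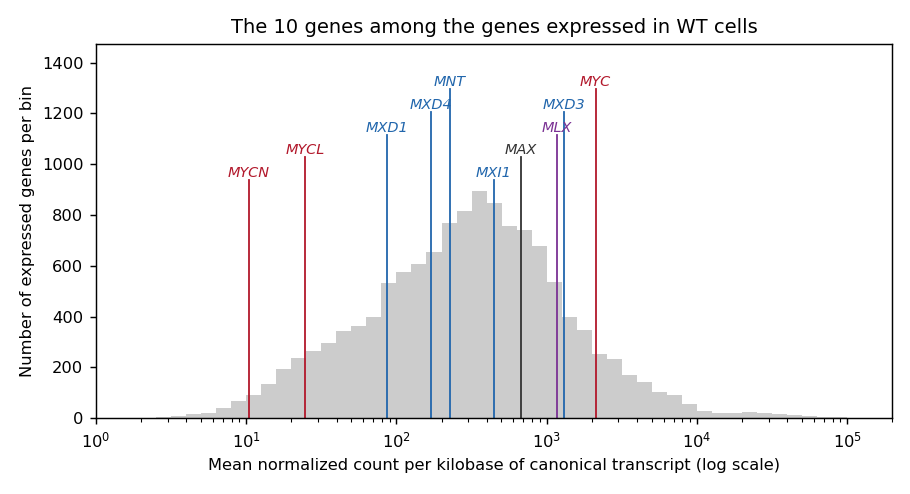
Number of expressed genes per bin against the mean normalized count per kilobase of canonical transcript (log scale), over the 12821 expressed genes with a length, with the level of each of the 10 network genes as a vertical line. MYC lies above 91.2% of expressed genes, MXD3 above 85.4% and MLX above 83.4%, while MYCL and MYCN lie in the lowest tail.

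The genes lie at separate places, given here on GRCh37 from the GENCODE annotation. MYC (ENSG00000136997) spans 128747680 to 128755197 on the plus strand of chromosome 8, MYCN (ENSG00000134323) 16080672 to 16087129 on the plus strand of chromosome 2 and MYCL (ENSG00000116990) 40361100 to 40367928 on the minus strand of chromosome 1. MAX (ENSG00000125952) spans 65472892 to 65569413 on the minus strand of chromosome 14, and MLX (ENSG00000108788) 40719090 to 40725257 on the plus strand of chromosome 17. MNT (ENSG00000070444) lies on the same chromosome as MLX, at 2287367 to 2304398 on the minus strand. MXI1 (ENSG00000119950) spans 111967363 to 112047123 on the plus strand of chromosome 10, and MXD1 (ENSG00000059728) 70124820 to 70170077 on the plus strand of chromosome 2. MXD3 (ENSG00000213347) spans 176728462 to 176739758 on the minus strand of chromosome 5, and MXD4 (ENSG00000123933) 2249159 to 2263836 on the minus strand of chromosome 4. No other gene had a transcript matching one of the 10 over at least 50% of its length at 98% identity or more.

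Genes that lie on top of a member can share its reads, and whether the reads were counted by strand is not given in the sources used here. Exons of another gene with a row covered canonical exon bases of 4 of the 10 genes, all on the opposite strand. Besides PSMC3IP over MLX, these were CASC11, a long noncoding RNA at 13.2 ± 3.29 normalized counts (SD, n = 3) over 5.21% of the MYC bases, MYCNOS, listed at 0, over 3.75% of the MYCN bases, and an unnamed long noncoding RNA, listed at 0, over 5.37% of the MAX bases. MAX also lies over FNTB and the readthrough gene CHURC1-FNTB, which shared 1 value of 4.0 ± 2.3, and over MIR4706, listed at 0. SNRNP27 at 1018 ± 31.2 overlaps MXD1, and RAB24 at 1259 ± 49.0 and PRELID1 at 4174 ± 225 overlap MXD3, in each case outside the canonical exons of the member. The part of such overlaps in the members' levels was not tested.

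The reads of each gene were then compared between libraries by a chi-square test of homogeneity against TMM library sizes, with Benjamini-Hochberg adjustment over the 14646 genes whose mean reached 10 reads. Of the 10 network genes, 1 differed at an adjusted p under 0.05, where 41.9% of all genes tested did. That gene was MYC, with 10429, 9039 and 9874 reads, a chi-square of 31.4 and an adjusted p of 2.41e-06. Its difference rested on replicate 1, and without that library the adjusted p of the chi-square test was 0.582. MXD4, at an adjusted p of 0.0513, and MYCN, at 0.0523, lay just outside the threshold in this chi-square test, and the other 7 genes had values from 0.101 to 0.812. At an unadjusted p under 0.05 the count was 3 of 10, where 50.2% of all genes passed.

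The chance of a call rises with the number of reads, so the 10 genes were also set beside genes of like depth, a split made after seeing the data. Between 10 and 1000 mean reads, 0 of 4 members (MYCN, MYCL, MXD1 and MXD4) differed, against 33.9% of all genes in that class. Between 1000 and 3000 reads it was 0 of 4 (MAX, MXI1, MXD3 and MNT), against 41.4%. Between 3000 and 10000 reads it was 1 of 2, MYC but not MLX, against 54.8%. No member had more reads than that, where 81.5% of genes differed. The test counts reads as independent. When edgeR's trended dispersion was added as an allowance for spread between replicates, 0.348% of all genes and 0 of the 10 differed. That dispersion was fitted to the same libraries, so it takes up the spread under test and leaves few calls by construction. A count of 0 under it, here and for the lists below, is therefore no independent check. Under that allowance 0 of the 10 and 4.84% of all genes passed an unadjusted p of 0.05, and the adjusted p of MYC from edgeR's dispersion was 1.

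Across the 9 expressed members the coefficient of variation ran from 1.93% for MXD1 to 9.98% for MYCL, and the median over all expressed genes was 4.88%. Replicate 1 was the highest library for 4 of the 9 (MYC, MXD1, MNT and MLX), replicate 2 for MAX and MXD4, and replicate 3 for MYCL, MXI1 and MXD3. No library was the highest for all members or for all antagonists.

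The 3 other proteins of the network fell into the same tables. MLXIP, the glucose-sensing partner of MLX, had 4546.8, 4688.2 and 4335.5 normalized counts, a mean of 4524 ± 178 (SD, n = 3). Its paralog MLXIPL, known from liver and fat, had 144 ± 5.72. MGA, a very large protein that pairs with MAX and also carries a T-box domain, had 4012.7, 4621.4 and 3993.8, a mean of 4209 ± 357 (SD, n = 3). Replicate 2 was the highest and replicate 3 the lowest for all 3 genes. Per kilobase, MGA reached 345 ± 29.3, between MXI1 and MNT, and MLXIPL 44.1 ± 1.76, between MXD1 and MYCL. With coding length MGA at 451 ± 38.2 lay below MNT and MLXIPL at 56.2 ± 2.24 below MYCL. The reads of MLXIP and MGA differed between libraries in the chi-square test, with adjusted p of 0.000497 and 2.34e-15. Of all genes 41.9% differed, and 54.8% of those between 3000 and 10000 reads, the class of both. With the trended dispersion added, neither MLXIP nor MGA differed. The call of 1 of them was lost without replicate 2 and of 1 without replicate 3.

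Genes that MYC is known to activate were high as a list. Of 30 such genes, 28 were expressed, and the median level per kilobase over all 30 lay above 92.6% of expressed genes, where the median of the 10 network genes lay above 50.5%. The highest by count were HSPD1, a mitochondrial chaperonin, at 59408 ± 1855, NCL, the nucleolar protein nucleolin, at 37759 ± 1733, and ENO1, a glycolytic enzyme, at 32651 ± 1123 normalized counts (SD, n = 3). CCND2, a D-type cyclin, and EIF4A1, a translation initiation helicase, were listed at 0 in all libraries, with no read recovered. For EIF4A1 the readthrough gene SENP3-EIF4A1 is annotated over it and had no row, and the part of this in the 0 was not tested. Of the 28 genes tested, 20 differed between libraries in the chi-square test, against 41.9% of all genes. The count was 16 without replicate 1, 12 without replicate 2, 9 without replicate 3 and 0 with the trended dispersion added. Calls over all genes fell as well, from 6141 to 3950, 3323 and 3447 with replicates 1, 2 and 3 left out. With all 3 libraries, 2 of 4 targets differed between 1000 and 3000 reads, 10 of 14 between 3000 and 10000 and 8 of 10 above that. The shares of all genes in these read classes were 41.4%, 54.8% and 81.5%. Replicate 3 was the highest library for 21 of the 28 expressed genes, among them HSPD1, NCL and ENO1, while MYC was highest in replicate 1. Replicate 3 was the highest for 36.0% of all expressed genes.

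The genes MYC is known to repress were lower as a list, but not each of them. Of 7, 5 were expressed, and the median level per kilobase of the 7 lay above 42.9% of expressed genes. The list was spread wide around it. CDKN1A lay above 91.0% and DDIT3 above 90.7% of expressed genes per kilobase, close to MYC at 91.2%. At the other end GAS1 lay above 0.234% and PDGFRB above 0.0156%. All 5 expressed genes were lowest in replicate 2, where MYC was also lowest but close to its value in replicate 3. A link between MYC and these genes over the libraries was not tested. CDKN1A, the p21 inhibitor of cyclin-dependent kinases, had 4568.9, 4285.4 and 4398.5 normalized counts, a mean of 4418 ± 143 (SD, n = 3). DDIT3, a stress-induced factor, had 1826 ± 185, and NDRG2, a differentiation gene, 725 ± 94.5. GAS1 at 16.8 ± 5.76 and PDGFRB at 11.8 ± 3.25 were not expressed at 1 CPM in every library. The reads of 5 of the 7 differed in the chi-square test, against 41.9% of all genes. It was 3 of 7 without replicate 1, 1 of 7 without replicate 2, 5 of 7 without replicate 3 and 0 with the trended dispersion added. Calls over all genes also fell with a replicate left out, as given for the activated targets. Over all expressed genes replicate 2 was the lowest library for 36.7%.

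For the glucose branch, TXNIP, the standard target of MLX with MLXIP, had 7400.5, 7372.5 and 7569.6 normalized counts, a mean of 7448 ± 107 (SD, n = 3). Its relative ARRDC4 had 744 ± 31.4, and PKLR, the liver pyruvate kinase, 1.9 ± 0.44 on 2 or 3 reads. Neither TXNIP nor ARRDC4 differed between libraries in the chi-square test, where 41.9% of all genes did. Among genes of like depth the share was 54.8% for TXNIP and 33.9% for ARRDC4. Neither gene passed an unadjusted p under 0.05 in this test, where 50.2% of all genes did.

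Transcripts of the enzymes and regulators known to act on MYC protein stability were detected throughout. All 17 genes of this turnover list were expressed, with a median level per kilobase above 73.1% of expressed genes. SET, an inhibitor of the phosphatase PP2A, had 23251 ± 435 normalized counts, HUWE1, a ubiquitin ligase, 10663 ± 952, and PPP2CA, the catalytic subunit of PP2A, 5724 ± 172 (SD, n = 3). PIM1, a kinase that phosphorylates MYC, was the lowest at 574 ± 36.0. The reads of 7 of the 17 differed in the chi-square test, a share of 41.2% beside 41.9% of all genes. It was 6 of 17 without replicate 1, 2 without replicate 2, 5 without replicate 3 and 0 with the trended dispersion added. With a replicate left out, calls over all genes fell too, as given for the activated targets.

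The cofactors of both sides of the network were also expressed throughout. All 16 coactivators were, with TRRAP, the scaffold of the acetyltransferase complexes, at 7992 ± 647, HCFC1 at 6888 ± 513, EP400, the remodelling subunit of one such complex, at 6063 ± 434 and DMAP1 lowest at 863 ± 38.7 normalized counts (SD, n = 3). All 10 corepressor genes of the SIN3 complex and NCOR1 were, with the deacetylase HDAC1 at 11208 ± 343, SUDS3 at 9891 ± 178, RBBP4 at 7959 ± 148 and SAP30 lowest at 1833 ± 48.1. The median level per kilobase lay above 67.9% of expressed genes for coactivators and above 84.2% for corepressors. In the chi-square test 10 of 16 coactivators and 5 of 10 corepressors differed, against 41.9% of all genes. Between 3000 and 10000 reads it was 8 of 12 and 3 of 6, against 54.8%. Between 1000 and 3000 reads it was 2 of 4 and 0 of 2, against 41.4%. Above 10000 reads 2 of 2 corepressors differed, against 81.5%. The coactivators had 7, 9 and 6 calls without replicates 1, 2 and 3, and the corepressors 3, 4 and 3. Fewer calls were also made over all genes with a replicate left out, as given for the activated targets. With the trended dispersion added both lists had 0. TRRAP, HCFC1 and EP400 were each highest in replicate 2 and lowest in replicate 3.

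Factors outside the network that read the same E-box were expressed beside it in 7 of 8 cases. SREBF2 and SREBF1, regulators of sterol and fatty acid synthesis, had 13378 ± 228 and 6988 ± 340 normalized counts, and USF2 had 3081 ± 136 (SD, n = 3). TFEC, a factor of myeloid cells, had 1 read in 1 library. Per kilobase, SREBF2 at 2555 ± 43.5 lay above MYC in mean level, and USF2 at 1765 ± 77.8 and SREBF1 at 1426 ± 69.3 lay between MYC and MXD3. These places turned on the length: with coding length SREBF2 at 3908 ± 66.5 lay below MYC and SREBF1 at 2031 ± 98.7 below MXD3. The reads of 5 of the 7 genes tested differed between libraries in the chi-square test, against 41.9% of all genes. It was 2 without replicate 1, 3 without replicate 2, 5 without replicate 3 and 0 with the trended dispersion added. Leaving out a replicate lowered the calls over all genes as well, as given for the activated targets.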

How the data were processed

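Total RNA of 22Rv1 WT cells was sequenced in 3 libraries. The authors isolated it with TRIzol, aligned paired-end reads to GRCh37 (hg19) by HISAT2, assigned them to GENCODE genes by HTSeq and scaled the gene counts by DESeq2. In the deposited files each value is such a scaled count (unit: signal), kept to 1 decimal. The GENCODE release, strandedness and treatment of reads mapping to several places are not given in the sources used here.

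Whole reads were recovered by finding the step of each library, and 100% of values came out whole within 0.06 normalized counts. The steps give size factors of 1.27, 1.18 and 1.27. The files hold 29000 rows. Neighbouring rows with identical reads in all libraries were merged, which removed 1976 rows and left 27024 counted genes. MLXIP shared its values with 1 other identifier, and none of the 10 members did. Symbols matched 86.3% of identifiers.

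Library sizes came from TMM in edgeR 4.0.16 (R 4.3.3). Homogeneity of the 3 counts was tested by chi-square where the mean reached 10 reads, at a Benjamini-Hochberg adjusted p of 0.05 (scipy 1.17.1, numpy 2.4.6, pandas 2.3.3). The procedure was tested on simulated counts with sampling noise only, so that test cannot speak to spread between replicates beyond such noise. With an intercept only, edgeR gave a common biological coefficient of variation of 5.53%. Canonical transcript lengths and positions came from GENCODE lifted to GRCh37, copies from minimap2 2.31 and promoters from RefSeq. Alternatives were library totals, DESeq2 1.42.0 size factors, other minimum counts, other CPM limits, an added dispersion, other lengths, and leaving out each replicate. Figures used matplotlib 3.10.9. Chi-square values cover counting error only.

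The text names all 10 members, MLXIP, MLXIPL and MGA, genes lying over a member, and of each list the 3 highest by normalized count, the lowest and, where 3 or fewer were not expressed, those. ODC1 and LDHA, printed with their promoters, were chosen by another rule, after values were seen. A marker gene that fell under the naming rule is not reported here. Members and lists were chosen with earlier results of these data known, and no list was given a test of its own.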

Additional observations from a re-analysis of the deposited data

How the results depend on the processing

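The number of the 10 genes whose reads differed between libraries was 1 and rose to 2 with library totals, with re-estimated DESeq2 size factors and with a minimum of 50 reads, each time by MXD4, which lay next to the threshold. It was 0 with the chi-square scaled down to sampling noise in low genes (10 to 50 reads) and 0 with the trended dispersion added, and between 1 and 2 with 1 replicate left out. The scaling and the dispersion were both fitted to these same libraries, so these counts of 0 are no independent check. Without replicate 1 the call of MYC was lost and that of MXD4 (adjusted p 0.0334) gained, and without replicate 2 MYCN (0.0416) was gained. Over all genes 6141 differed, with 508 and 51 under these larger allowances for spread and between 3323 and 3950 with 1 replicate left out, where fewer samples enter. The members' levels moved by less than 1 SD in all 30 combinations of a member with another library scaling. Each rescaled level was first brought to the same overall mean, so these averages over the libraries could hardly move, and this is no test of the scaling. Members expressed numbered 9, with 10 at 0.5 CPM or at 1 read and 8 at 5 CPM.

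Lengths moved the ratios most. MYC to MAX was 2.06 with coding length and 5.97 with all exons. MYC to the 5 antagonists summed was 0.904 and 1.51, and 1.00 without overlapped bases. The MAX partners summed to MAX were 4.36 and 10.1. These follow from the lengths alone, since the counts are the same.

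No paired analysis was possible because the series as used here has 1 group. Depth limits MYCN, at 25 to 47 reads, more than any other member. Short reads were counted per gene, so isoforms of MAX, MXI1 and MXD3 were not told apart, and protein was not measured.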

Other observations

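Over the 97 expressed genes of the network and its lists, replicate 1 was the highest library for 29, replicate 2 for 22 and replicate 3 for 46. The median canonical transcript length of these 3 sets was 2708, 5831 and 2448 bases. Over all 12877 expressed genes the counts were 4050, 4188 and 4639 and the median lengths 2992, 4591 and 2803 bases, so genes highest in replicate 2 were the longest in both. MGA, TRRAP, HCFC1, EP400 and HUWE1, large genes of the lists, were each highest in replicate 2, and the part of transcript length in this was not tested.

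Read levels of protein-coding genes can be set out by overlap with exons of other protein-coding genes that have a row. Overlaps with noncoding genes were left aside here, and how overlaps were counted was not tested. The 25 genes with at least 90% of their canonical exon bases under such exons on the opposite strand had a median of 1.33 mean reads. The 15961 genes without such overlap had 371. Of those 25 genes, 6 had at least 100 mean reads. The 212 genes covered to at least 90% on the same strand had a median of 6.67. The 159 genes covered between 50% and 90% on the opposite strand had 666. PSMC3IP covers 32.8% of MLX, less than either class of the opposite strand.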
